A study of Mus musculus with 32 samples.

Results

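The genes described here act in protein folding in the endoplasmic reticulum (ER) and in the unfolded protein response. They were given as a list of 35 gene names, drawn up with earlier results of these data known, and 34 of them were among the 11818 genes of the count table. Derl3 was not analysed here. The members were grouped by role into 8 chaperones and their cofactors, 4 J-domain co-chaperones, 8 disulfide and proline isomerases or oxidases, 4 sensors and transcription factors, 7 genes of ER-associated degradation and 3 genes of the translocon and of glycosylation. All 34 passed the filter on low counts in every model, and the lowest count of a member in any library was 42.

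Secreted and membrane proteins are threaded into the ER through the Sec61 channel, receive N-linked glycans, and fold with the help of chaperones and of enzymes that form disulfide bonds or turn proline bonds. When unfolded proteins build up, the sensors Ire1 (encoded by Ern1), Perk (Eif2ak3) and Atf6 start the unfolded protein response, in which cleaved Atf6 and spliced Xbp1 raise transcription of chaperones and of the machinery that moves misfolded proteins to the proteasome. Fibroblasts that secrete matrix and alveolar type 2 cells that secrete surfactant both rely on this machinery.

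The study asked how products of lung fibroblasts affect organoids, in which CD45-/CD31-/Epcam+ cells from the lungs of C57BL/6J mice grow in Matrigel together with CCL206 cells, a mouse lung fibroblast line that had been made unable to proliferate. Cultures received vehicle, EVs (extracellular vesicles) or SFs (soluble factors), both made from the human lung fibroblast line MRC5, or OGN (osteoglycin, a small matrix proteoglycan, 10 µg/mL). After 72 h the Epcam+ and the CCL206 fraction of each culture were separated with Epcam microbeads and sequenced. Cells from each of 4 mice went through all the treatments, and the 32 libraries form 8 groups of 4. The fibroblasts were 1 cell line in all cultures, so for them a mouse number marks a culture and the mouse that gave its epithelial cells.

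The libraries held 1805914 to 17675454 counts, with a median of 5901652. The 8 epithelial markers summed to 3585 to 4971 CPM (a library's counts scaled to a common total) in the Epcam+ libraries and to 137 to 565 in the CCL206 libraries, and the 9 fibroblast markers present in the table summed to 2052 to 3745 and 7834 to 13270 CPM, so both fractions were enriched for their labelled type and both held RNA of the other. The study's 10 alveolar type 2 markers summed to 9552 to 16000 CPM in the Epcam+ libraries and to 1597 to 4841 in the CCL206 libraries. In bulk libraries, fewer cells of a type and less RNA per cell cannot be told apart. The EV-treated CCL206 libraries of mice 2 and 4 stood apart from the others: Spearman's rho across genes between transcript length and the difference from the vehicle libraries was -0.58 and -0.62 in them, against -0.29 and -0.36 in mice 1 and 3, and results of that comparison are given with and without these libraries.

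Together the members took 1.34 to 1.71% of all counts in an Epcam+ library and 1.52 to 2.09% in a CCL206 library. Per kilobase of transcript, the most abundant in vehicle-treated fibroblasts were Hsp90b1 (the ER form of Hsp90, 850 CPM per kb), Calr (calreticulin, a lectin chaperone, 722), P4hb (protein disulfide isomerase, 569), Pdia3 (a disulfide isomerase of glycoproteins, 436) and Hspa5 (BiP, the ER Hsp70, 393). Ero1b, an oxidase that recharges protein disulfide isomerase, was the lowest at 5.37 CPM per kb. Vehicle-treated Epcam+ cells had the same genes at both ends, with 712 for Calr, 621 for Hsp90b1 and 4.68 for Ero1b.

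The ER stress response element, to which Atf6 and the CCAAT-binding factor NF-Y are known to bind, is the sequence CCAAT, any 9 bases, then CCACG, and it is shown here because it is the known regulatory sequence of this gene set. Promoters (250 bases before to 50 after the start site, RefSeq, GRCm38.p6) were at hand for 28 of the 34 members. On either strand, 9 of them (32.1%) held the element. It was in 15 of the 9166 genes of the table that had a promoter (0.164%) and in 39 of all 32851 promoters (0.119%). The shares of the table's genes here and below include the members, so the 15 hold these 9. The members were listed for this response, so the contrast only describes the list. The matches follow 5′ to 3′ in the orientation in which the element reads, with 15 bases on each side and its fixed letters in capitals.

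Hspa5: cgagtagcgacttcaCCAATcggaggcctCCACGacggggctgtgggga
Hsp90b1, nearer match: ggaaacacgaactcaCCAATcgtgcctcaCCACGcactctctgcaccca
Hsp90b1, farther match: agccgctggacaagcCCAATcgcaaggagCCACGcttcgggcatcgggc
Calr: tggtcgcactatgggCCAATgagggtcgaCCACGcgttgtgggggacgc
Canx: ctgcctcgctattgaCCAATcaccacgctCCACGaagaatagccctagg
Creld2: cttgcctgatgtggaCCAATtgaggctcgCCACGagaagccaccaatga
Dnajc3: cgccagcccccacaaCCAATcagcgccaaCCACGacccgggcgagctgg
Ero1b: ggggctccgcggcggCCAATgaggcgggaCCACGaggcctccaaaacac
Pdia6: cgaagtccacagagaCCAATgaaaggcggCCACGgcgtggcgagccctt
Syvn1: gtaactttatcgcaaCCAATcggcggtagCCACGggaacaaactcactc

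The Hspa5 sequence lies at chr2:34772010-34772058 on the plus strand, which is the strand of the gene, and its element ends 46 bases before the start site. The other windows are at chr10:86705518-86705566 and chr10:86705623-86705671 (Hsp90b1, gene on the minus strand), chr8:84847060-84847108 (Calr, minus), chr11:50325785-50325833 (Canx, minus), chr15:88819505-88819553 (Creld2, plus), chr14:118937812-118937860 (Dnajc3, plus), chr13:12565667-12565715 (Ero1b, plus), chr12:17266476-17266524 (Pdia6, plus) and chr19:6046517-6046565 (Syvn1, plus). All lie upstream of the start site. For Calr, Creld2, Ero1b and the nearer Hsp90b1 match the printed sequence reads on the strand opposite to the gene. For the others it reads on the strand of the gene. The shorter form known as ERSE-II, ATTGG, 1 base, then CCACG, was in the promoters of Dnajb11 and Herpud1 (7.14% of 28, against 0.0982% of the table's genes), and the core TGACGTG of the unfolded protein response element was in that of Hspa5 (3.57%, against 3.4%). A match describes the letters of the window and does not show that a factor was bound there.

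The question of the treatment comparisons was whether EVs, SFs or OGN changed these genes in either population. Changes are given as log2 fold changes against vehicle ± SE from edgeR's quasi-likelihood model with mouse and treatment, n = 4 per group, and a gene was called where its p, adjusted by Benjamini-Hochberg over all genes tested, was under 0.05. The 3 comparisons of a population share its vehicle libraries. In CCL206 fibroblasts EVs changed 20 of the 34 members, 17 upwards and 3 downwards, in a comparison in which 36.0% of all genes were called (19.8% higher, 16.2% lower). OGN raised 1 member, Hyou1, in Epcam+ cells, and no member passed the test in the other 4 comparisons. Levels in every library are plotted for 6 members and the changes of all 34 are mapped by role.

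**Figure D1:**
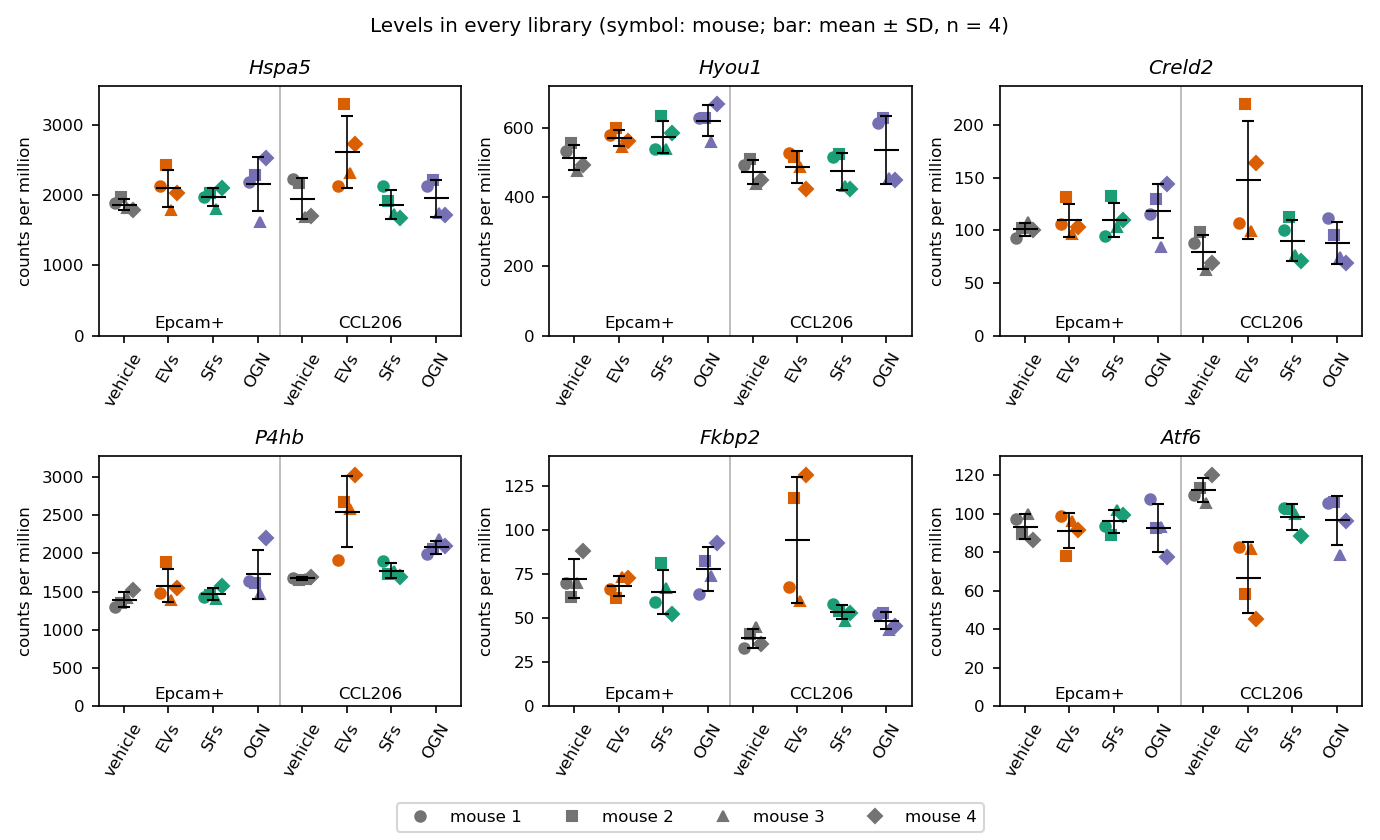
CPM of 6 members in all 32 libraries, by population and treatment (symbols, mouse 1 to 4; bars, mean ± SD, n = 4; axes start at 0). In EV-treated CCL206 fibroblasts P4hb, Fkbp2 and Creld2 lay above vehicle in all 4 mice and Atf6 below, and Hyou1 in Epcam+ cells lay above vehicle with OGN.

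**Figure D2:**
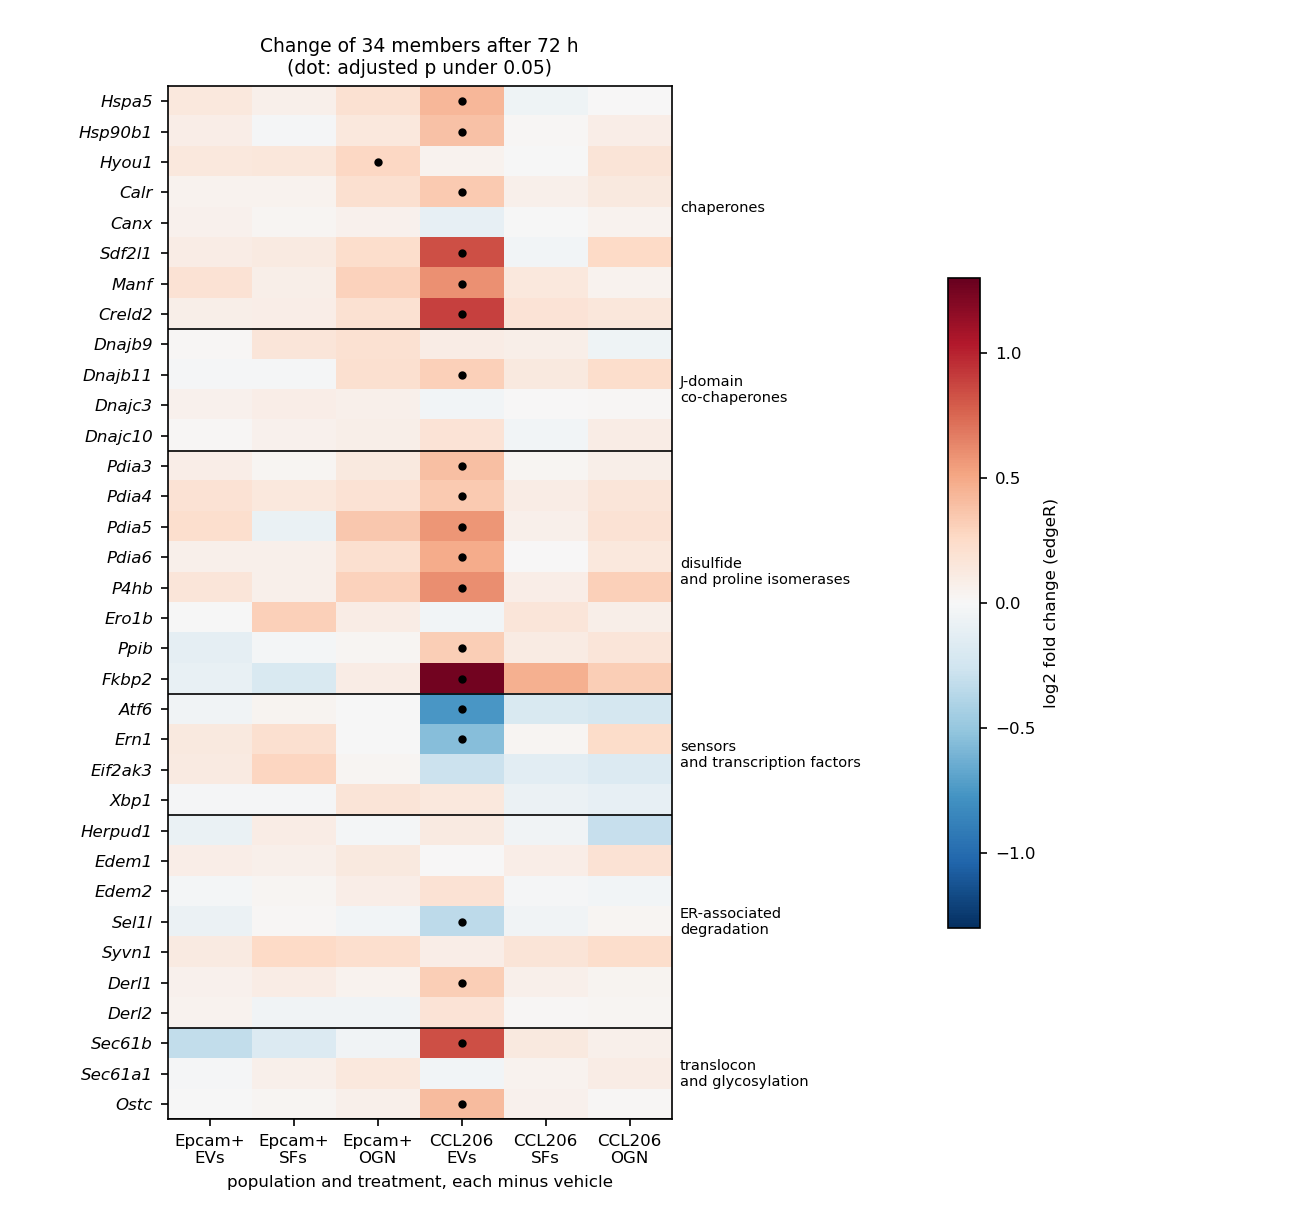
Log2 fold change against vehicle of the 34 members (rows, by role) in the 6 treatment comparisons (columns), with red for higher, blue for lower and a dot where the adjusted p was under 0.05. The 21 dots are 20 in EV-treated CCL206 fibroblasts and Hyou1 in OGN-treated Epcam+ cells.

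In EV-treated fibroblasts, folding enzymes and chaperones were higher and 2 of the stress sensors were lower. The members had a median log2 fold change of 0.25, and 26 of 34 were above 0, while the median of all 11689 genes tested was -0.01. The 58.8% of members called stands against the 36.0% of all genes. Without the EV-treated libraries of mice 2 and 4, 5 members were called (Creld2, Fkbp2, P4hb and Pdia4 higher, Atf6 lower), beside 5.48% of all genes, and the members' median was 0.10. Without all libraries of mouse 2 no member was called (0.162% of genes), and without mouse 4 there were 5 (6.07% of genes). There were 16 without mouse 3 (32.9% of genes) and 20 without mouse 1 (38.9% of genes). With the 8 EV and vehicle libraries alone Creld2 and Fkbp2 were called, beside 3.34% of genes.

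Of the 8 chaperones and cofactors, 6 rose. Hspa5 was at 2223, 2171, 1692 and 1707 CPM in vehicle libraries of mice 1 to 4 and at 2132, 3289, 2315 and 2728 CPM with EVs. It was higher in mice 2, 3 and 4 and slightly lower in mouse 1, and the groups overlapped, with a log2 fold change of 0.43 ± 0.12 (adjusted p = 0.014). Creld2, a secreted disulfide isomerase-like protein and a known target of Atf6, went from 88.1, 98.4, 62.8 and 68.7 to 107, 220, 99.6 and 164 CPM. Every EV library was above every vehicle library, and the log2 fold change was 0.88 ± 0.17 (adjusted p = 0.00395). Sdf2l1, a partner of BiP complexes, went from 34.1, 41.2, 28.5 and 26.9 to 37.2, 70.7, 39.4 and 89.0 CPM (log2 fold change 0.84 ± 0.21, adjusted p = 0.0104), and the EV libraries of mice 1 and 3 lay within the vehicle range. Manf, an ER protein that is secreted under stress, rose by 0.59 ± 0.15 (adjusted p = 0.0108), Hsp90b1 by 0.38 ± 0.10 (adjusted p = 0.0134) and Calr by 0.34 ± 0.11 (adjusted p = 0.0265). Hyou1, a nucleotide exchange factor of BiP, was at 0.05 ± 0.09 and Canx, the membrane-bound lectin chaperone calnexin, at -0.11 ± 0.09, and neither passed the test. Without the EV libraries of mice 2 and 4 the changes were 0.40 for Creld2, 0.28 for Sdf2l1, 0.20 for Manf, 0.20 for Hsp90b1, 0.18 for Hspa5 and 0.10 for Calr, and of these Creld2 passed the test (adjusted p = 0.034).

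Among the isomerases and oxidases 7 of 8 rose. Fkbp2, a proline isomerase of the ER and the member with the largest change of the 34, was at 32.8, 40.8, 44.7 and 35.5 CPM with vehicle and at 67.7, 118, 59.5 and 131 CPM with EVs. All EV libraries were above all vehicle libraries, with mice 2 and 4 highest, and the log2 fold change was 1.25 ± 0.20 (adjusted p = 0.00241). P4hb, which also serves as a subunit of collagen prolyl 4-hydroxylase, was at 1683, 1649, 1671 and 1693 CPM and at 1908, 2674, 2582 and 3027 CPM. The vehicle libraries were close together, each EV library was higher, and the log2 fold change was 0.60 ± 0.12 (adjusted p = 0.00397). Pdia4, a disulfide isomerase found with BiP, went from 645, 652, 534 and 551 to 716, 826, 734 and 722 CPM without overlap (0.34 ± 0.08, adjusted p = 0.00918).

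The other disulfide isomerases rose too, Pdia5 by 0.58 ± 0.12 (adjusted p = 0.00544), Pdia6 by 0.48 ± 0.12 (adjusted p = 0.00924) and Pdia3 by 0.39 ± 0.10 (adjusted p = 0.0108), and all 3 were higher in the EV library in 4 of 4 mice. Ppib, the proline isomerase cyclophilin B, which acts on collagen, rose by 0.32 ± 0.10 (adjusted p = 0.0277). Ero1b was at -0.04 ± 0.15. Without the EV libraries of mice 2 and 4 the changes were 0.70 for Fkbp2 (adjusted p = 0.00507), 0.38 for P4hb (adjusted p = 0.0204), 0.29 for Pdia4 (adjusted p = 0.043), 0.36 for Pdia5, 0.20 for Pdia3, 0.18 for Pdia6 and 0.08 for Ppib, and the last 4 did not pass.

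Of the 4 J-domain proteins, which stimulate BiP, Dnajb11 rose from 119, 125, 105 and 112 to 128, 162, 136 and 145 CPM (0.31 ± 0.10, adjusted p = 0.0239), with no overlap between the groups. Dnajc10, a reductase of the ER, was at 0.17 ± 0.09, Dnajb9, which acts on Ire1, at 0.10 ± 0.12 and Dnajc3, an inhibitor known as p58IPK, at -0.04 ± 0.09, and these did not pass. The change of Dnajb11 was 0.18 without the EV libraries of mice 2 and 4 (adjusted p = 0.3).

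Of the 4 sensors and transcription factors, Atf6 and Ern1 fell. Atf6 was at 110, 113, 106 and 120 CPM with vehicle and at 82.5, 58.2, 81.5 and 45.2 CPM with EVs. It was lower in all 4 mice without overlap, most in mice 4 and 2, and the log2 fold change was -0.75 ± 0.15 (adjusted p = 0.0045). Ern1 went from 156, 141, 176 and 179 to 121, 90.5, 165 and 73.4 CPM (-0.55 ± 0.16, adjusted p = 0.0181) and was lower in 4 of 4 mice, with mouse 3 inside the vehicle range. Eif2ak3 was at -0.28 ± 0.15 and Xbp1, the transcription factor made after splicing by Ire1, at 0.14 ± 0.09, both short of the threshold. Gene counts do not tell spliced from unspliced Xbp1. Without the EV libraries of mice 2 and 4 the change was -0.43 for Atf6 (adjusted p = 0.0257) and -0.19 for Ern1 (adjusted p = 0.278).

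In ER-associated degradation, Derl1, a channel component through which proteins leave the ER, rose from 200, 206, 206 and 202 to 248, 267, 218 and 282 CPM (0.32 ± 0.09, adjusted p = 0.0157), without overlap. Sel1l, the adaptor of the ubiquitin ligase Hrd1, fell from 220, 209, 200 and 216 to 201, 153, 186 and 128 CPM (-0.34 ± 0.11, adjusted p = 0.0245), and mouse 1 stayed within the vehicle range. Syvn1, which encodes Hrd1 itself, was at 0.08 ± 0.10 and Herpud1, a ubiquitin-like partner of Hrd1, at 0.12 ± 0.12. Derl2, Edem2 and Edem1, the last 2 being mannosidase-like proteins that mark misfolded glycoproteins, lay between 0.00 and 0.18 and did not pass. At the translocon, Sec61b, the small beta subunit, went from 39.4, 41.5, 42.1 and 36.7 to 65.7, 87.5, 41.4 and 101 CPM (0.84 ± 0.20, adjusted p = 0.00791), with the EV library of mouse 3 inside the vehicle range. Ostc, a subunit of the oligosaccharyltransferase, rose by 0.41 ± 0.15 (adjusted p = 0.0433), while Sec61a1, which encodes the pore itself, was at -0.04 ± 0.08. Without the EV libraries of mice 2 and 4, Derl1 was at 0.17, Sel1l at -0.13, Sec61b at 0.30 and Ostc at -0.03, and none passed.

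**Figure D3:**
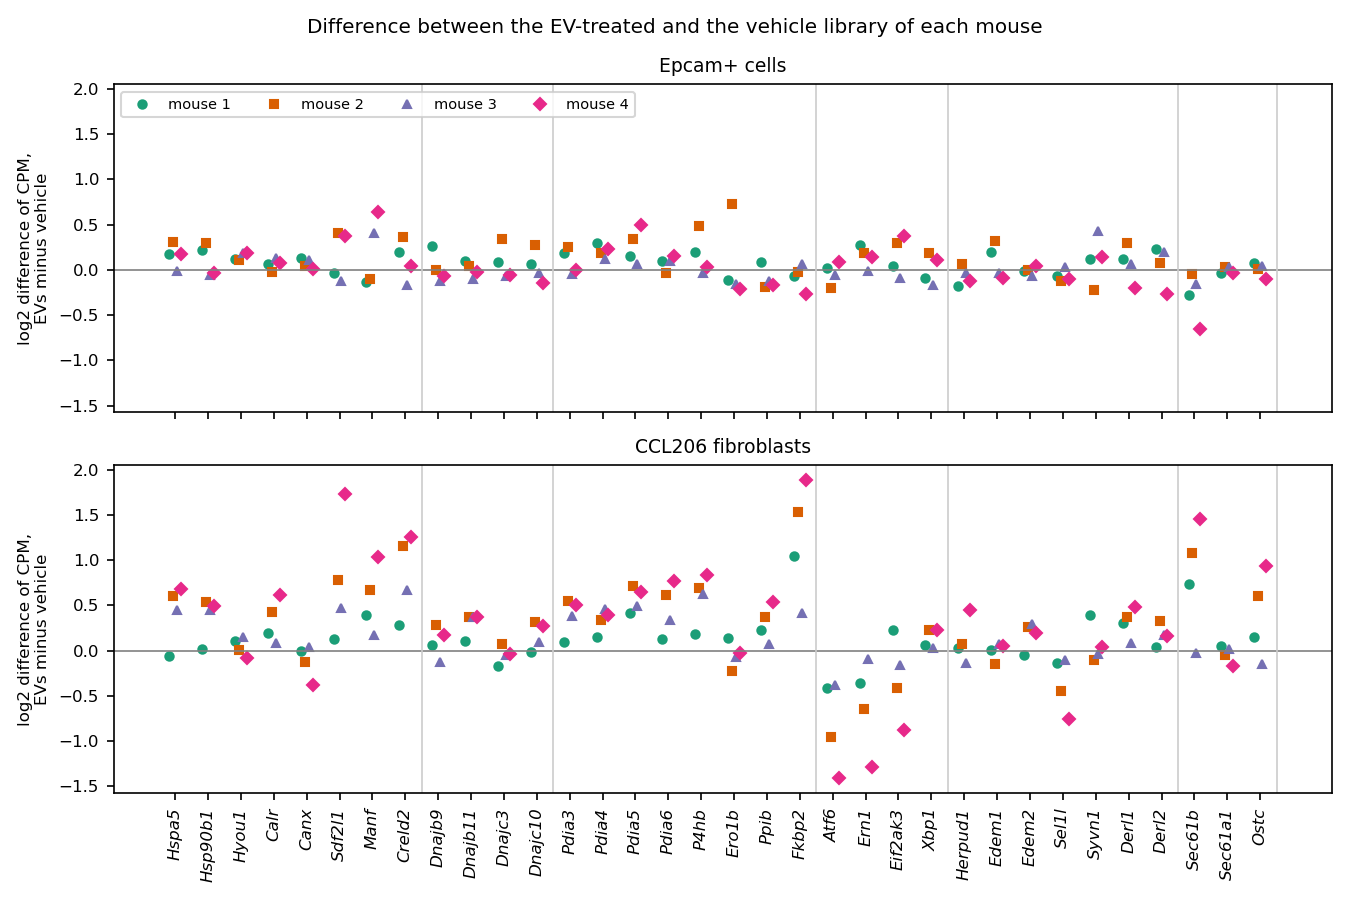
Log2 difference of CPM between the EV-treated and the vehicle library of the same mouse for each member (ordered by role), in Epcam+ cells (top) and CCL206 fibroblasts (bottom). In fibroblasts the differences ranged from -1.41 (Atf6, mouse 4) to 1.88 (Fkbp2, mouse 4), and the members' median was 0.34 in mouse 2 and 0.38 in mouse 4 against 0.10 and 0.08 in mice 1 and 3.

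Within single mice, the median difference of the members between the EV and the vehicle fibroblast library was 0.10 in mouse 1, 0.34 in mouse 2, 0.08 in mouse 3 and 0.38 in mouse 4. In 16 members the EV library was higher in all 4 mice, and in 3 (Atf6, Ern1, Sel1l) it was lower in all 4. The matching share of all genes was not computed, so these counts do not set the members apart. The EV and vehicle groups did not overlap in 12 members, 11 of them higher and Atf6 lower, beside 23.4% of all genes.

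Transcript length moved with these changes. Across the 34 members, Spearman's rho between length and the log2 fold change was -0.705 (genes of the same libraries, given as a description). The 17 members that rose had a median transcript length of 2247 nt and the 3 that fell of 7002 nt, beside 3996 nt for the other 14, with Fkbp2 (668 nt) at the short end and Atf6 (7541 nt) at the long end. When each library's trend of counts on length was taken out, rho was -0.068, 14 members were called beside 23.6% of all genes, and 11 of these were among the 20: Hspa5, Hsp90b1, Creld2, Manf, P4hb, Pdia3, Pdia4, Pdia6, Fkbp2 and Derl1 higher and Atf6 lower. Fkbp2 was then at 0.48 and Atf6 at -0.35. Edem1 (0.29), Dnajc10 (0.27) and Derl2 (0.28) were added, and Ppib (-0.17) and Ostc (-0.16) changed sign without passing the test. Of the 9 members with the ER stress response element, 5 rose (median log2 fold change 0.34), and of the 19 with a promoter lacking it 9 rose and 2 fell (median 0.18); with the length trend removed the medians were 0.17 and 0.25.

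**Figure D4:**
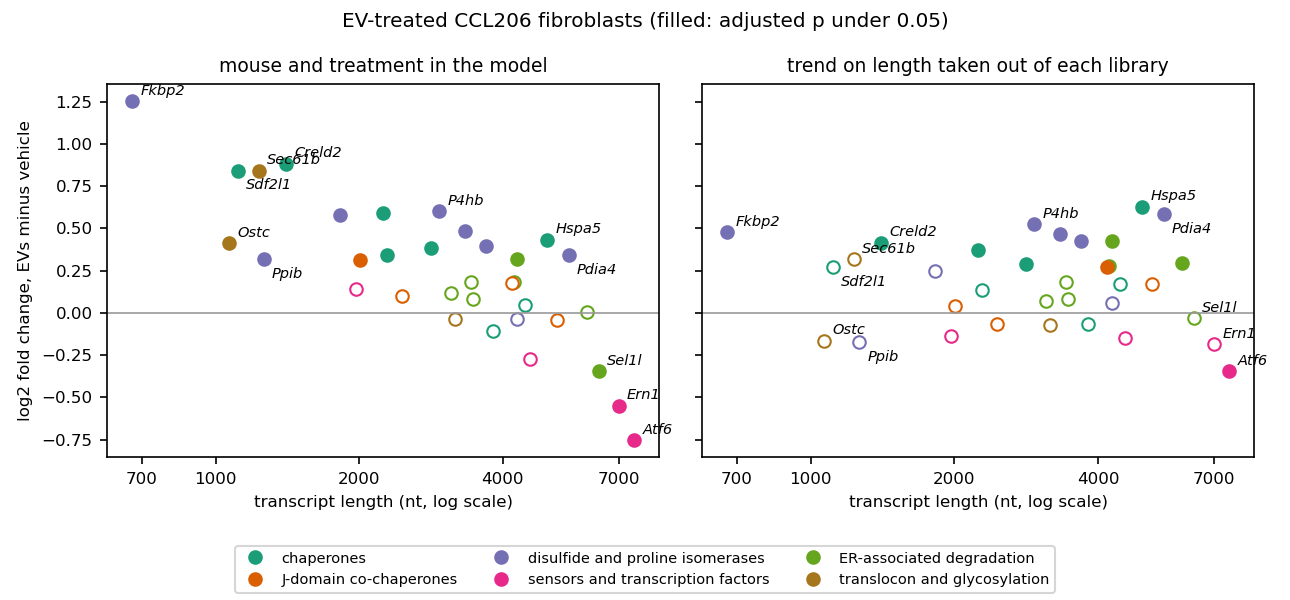
Log2 fold change of each member in EV-treated CCL206 fibroblasts against transcript length (nt, log scale), in the model with mouse and treatment (left) and with each library's trend on length taken out (right). Colors give the role and filled symbols an adjusted p under 0.05. On the left the changes run from 1.25 at the shortest transcript (Fkbp2) to -0.75 at the longest (Atf6), and on the right Fkbp2 is at 0.48 and Atf6 at -0.35.

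Other genes of the same compartment, from lists made for this report, were read in the same comparison. In it 19.8% of all genes were called higher and 16.2% lower. Of 30 other ER folding genes 14 rose and 1 fell (median 0.21), among them Prkcsh, the beta subunit of glucosidase II (0.66 ± 0.12, adjusted p = 0.00373), Erp29, an ER chaperone (0.75 ± 0.15, adjusted p = 0.0044), and Prdx4, a peroxiredoxin that feeds disulfide formation (0.78 ± 0.16, adjusted p = 0.00455). Of 28 genes of translocation, signal peptidase and oligosaccharyltransferase 15 rose and 1 fell (median 0.31), led by Sec61g, the gamma subunit of the channel (1.25 ± 0.24, adjusted p = 0.00395), Rpn1 (0.48 ± 0.10, adjusted p = 0.00545), a subunit of the oligosaccharyltransferase, and Ssr2 (0.66 ± 0.14, adjusted p = 0.00576), a subunit of the translocon-associated complex. Of 22 other genes of ER-associated degradation 6 rose and 1 fell (median 0.21). Stub1, a chaperone-linked ubiquitin ligase, was at 0.86 ± 0.18 (adjusted p = 0.00523), Selenos, a membrane partner of the derlins, at 0.68 ± 0.16 (adjusted p = 0.00732), and Edem3, a relative of Edem1, at -0.58 ± 0.17 (adjusted p = 0.0174).

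Among 14 other sensors and regulators 2 rose and 4 fell (median 0.00), beside 19.8% and 16.2% of all genes. Creb3, a membrane-bound transcription factor, was at 0.58 ± 0.15 (adjusted p = 0.0111), its relative Creb3l2 at -0.64 ± 0.17 (adjusted p = 0.0114) and Nfyc, a subunit of the CCAAT-binding factor, at -0.52 ± 0.14 (adjusted p = 0.0116). In the Perk branch 2 of 12 genes were called higher (median 0.12), where 19.8% of all genes were: Asns, the asparagine synthetase, by 0.39 ± 0.10 (adjusted p = 0.00926) and Atf4, the transcription factor of that branch, by 0.38 ± 0.13 (adjusted p = 0.0307). Of 16 heat shock genes of cytosol and mitochondria 4 were called higher (median 0.13), beside the same 19.8%, with Hspe1 at 1.06 ± 0.21 (adjusted p = 0.00447), Hspb1 at 0.84 ± 0.19 (adjusted p = 0.00703) and Hsp90aa1 at 0.46 ± 0.14 (adjusted p = 0.0194). Without the EV libraries of mice 2 and 4 the counts were 3 of 30, 2 of 28, 0 of 22, 1 of 14 (lower), 0 of 12 and 0 of 16, in the order given. In that setting 5.48% of all genes were called. With the length trend removed the counts were 9 higher and 1 lower, 12 and 1, 6 and 0, 0 and 4, 1 and 1, and 4 and 1, beside 23.6% of all genes. Of the epithelial markers 1 of 8 was called higher in EV-treated fibroblasts (Krt18), and their sum was 309 to 438 CPM against 177 to 473 with vehicle. Of 8 leukocyte markers listed, 3 were in the table (Cd14, Lyz2, Cd68), and Ptprc was not. These 3 summed to 135 to 184 CPM against 77.4 to 149, with 2 of them called higher (Cd14, Lyz2). Under vehicle they summed to 464 to 513 CPM in Epcam+ cells. A rise of these 3 genes does not by itself show more leukocytes. The fibroblast markers summed to 7834 to 13010 CPM against 11570 to 12910, with 3 called higher and 2 lower of 9. The part of these markers in the result was not tested.

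In EV-treated Epcam+ cells no member was called, where 0.888% of all genes were. The members' median log2 fold change was 0.05, beside 0.00 for all genes, and 22 of 34 were above 0. The smallest p of each role was at Hyou1 (0.13 ± 0.07, adjusted p = 0.546), Dnajc3 (0.05 ± 0.08, 0.908), Pdia4 (0.19 ± 0.07, 0.322), Ern1 (0.13 ± 0.10, 0.776), Herpud1 (-0.09 ± 0.08, 0.789) and Sec61b (-0.32 ± 0.13, 0.348). At an unadjusted p under 0.05 there were 2 members, beside 1195 of all 11716 genes, and DESeq2 called none. Sec61b was lower in all 4 mice (79.2, 74.9, 75.6 and 96.2 CPM with vehicle, 65.2, 72.4, 67.7 and 61.2 with EVs) and was the 1 member whose groups did not overlap, beside 4.71% of all genes. Of the other lists, Fkbp10, a proline isomerase of collagen, was called (0.61 ± 0.14, adjusted p = 0.0315, in 7 of 13 settings). Fibroblast markers summed to 3162 to 3745 CPM in these libraries and to 2239 to 3111 with vehicle, and 4 of the 9 tested were called higher. Their part in the change of Fkbp10 was not tested.

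The effect of EVs differed between the populations for 8 members in the test of the interaction over all 32 libraries, where 23.8% of all genes were called. As log2 fold change in fibroblasts minus that in Epcam+ cells, it was 1.32 ± 0.25 for Fkbp2 (adjusted p = 0.00282), 1.13 ± 0.25 for Sec61b (adjusted p = 0.0055), 0.78 ± 0.21 for Creld2 (adjusted p = 0.0136), 0.42 ± 0.15 for P4hb (adjusted p = 0.049), 0.40 ± 0.12 for Ppib (adjusted p = 0.022) and 0.39 ± 0.14 for Pdia6 (adjusted p = 0.041). It was -0.73 ± 0.18 for Atf6 (adjusted p = 0.00844) and -0.70 ± 0.20 for Ern1 (adjusted p = 0.0179). For Hspa5 the difference was 0.27 ± 0.15 (adjusted p = 0.197) and did not pass. Without the EV libraries of mice 2 and 4, in both populations, none of the 8 passed, and with the length trend removed Sec61b and Pdia6 did.

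With OGN, Epcam+ cells had Hyou1 as the 1 called member, beside 2.7% of all genes. Hyou1 was at 532, 555, 476 and 492 CPM with vehicle and at 627, 629, 559 and 667 CPM with OGN. Every OGN library was above every vehicle library, and the log2 fold change was 0.27 ± 0.07 (adjusted p = 0.0342). The call was lost when any 1 mouse was left out (adjusted p 0.065 without mouse 2 and 0.182 without mouse 4), without mouse in the model, and with fewer libraries in the fit. Over all members the median was 0.13, beside 0.00 for all genes, and 28 of 34 were above 0. An unadjusted p under 0.05 was found for 9 members, beside 1540 of all 11716 genes. All 8 chaperones and all 8 isomerases lay above 0, with medians of 0.20 and 0.16. By mouse, the median difference of the members was 0.10, 0.19, -0.003 and 0.10 in mice 1 to 4. In mouse 3, 17 of 34 members were above 0.

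The other roles had their smallest p at P4hb (0.30 ± 0.10, adjusted p = 0.116), Dnajb11 (0.20 ± 0.09, 0.288), Xbp1 (0.17 ± 0.08, 0.347), Sec61a1 (0.13 ± 0.07, 0.427) and Syvn1 (0.22 ± 0.12, 0.451). P4hb was at 1293, 1348, 1414 and 1516 CPM with vehicle and at 1635, 1610, 1471 and 2199 with OGN, higher in 4 of 4 mice and most in mouse 4. In the library of mouse 4, Hspa5 was also the highest of the OGN group (2187, 2285, 1618 and 2534 CPM, against 1887, 1966, 1809 and 1793), and mouse 3 was lower than its vehicle library. Hyou1 and Sec61a1 were the 2 members without overlap, beside 6.02% of all genes. The 3 genes of the leukocyte list in the table (Cd14, Lyz2, Cd68) summed to 712 to 872 CPM with OGN and to 464 to 513 with vehicle. Of these, 2 were called higher, which does not by itself show more leukocytes. Of the 9 fibroblast markers Dcn was called higher (log2 fold change 1.14) and Col6a1 (-0.64) and Col6a2 (-0.83) lower, with sums of 2052 to 2588 CPM against 2239 to 3111. Of the 10 genes in the study's list of alveolar type 2 markers, which includes Hopx, Sftpa1 (0.42) and Sftpd (0.45) were called higher and Hopx (-0.64) lower. Their sums were 11960 to 15110 CPM against 9552 to 16000. The part of these markers in the change of Hyou1 was not tested.

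In OGN-treated fibroblasts no member was called, beside 4.56% of all genes. Of the members 5 had an unadjusted p under 0.05, beside 1831 of all 11689 genes, and DESeq2 called none. The median was 0.08, beside -0.01 for all genes, and 28 of 34 were above 0. P4hb was at 1988, 2055, 2191 and 2098 CPM, above all vehicle libraries (1649 to 1693), with a log2 fold change of 0.31 ± 0.11 (adjusted p = 0.171). Herpud1 was the lowest of the members, at -0.30 ± 0.12 (adjusted p = 0.226), with 82.0, 70.4, 71.4 and 54.2 CPM against 87.9, 90.8, 83.1 and 78.6. The other roles had their smallest p at Hyou1 (0.17 ± 0.09, adjusted p = 0.369), Dnajb11 (0.22 ± 0.10, 0.262), Ern1 (0.24 ± 0.16, 0.509) and Sec61a1 (0.09 ± 0.08, 0.65). The groups did not overlap in 6 members, all higher (P4hb, Ppib, Dnajb11, Dnajc10, Ern1, Syvn1), beside 16.3% of all genes.

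These counts depended on the EV libraries, which share the estimate of spread. Without them 8 members were called in OGN-treated fibroblasts (P4hb, Pdia4, Fkbp2, Dnajb11, Ern1, Edem1 and Syvn1 higher, Herpud1 lower), beside 15.1% of all genes. P4hb then had an adjusted p of 0.000201 at a log2 fold change of 0.32. The difference of the OGN effect between the populations was called for no member, beside 0.551% of all genes, with 1 member at an unadjusted p under 0.05 beside 813 of all 11805 genes, and DESeq2 called none.

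Outside the member list, Ero1a, the oxidase that recharges protein disulfide isomerase and a paralog of Ero1b, rose with OGN in both populations. In fibroblasts it went from 196 ± 11.8 (SD, n = 4) to 438 ± 58.3 CPM (log2 fold change 1.15 ± 0.13, adjusted p = 3.43e-05), and in Epcam+ cells from 111 ± 4.71 to 173 ± 20.2 CPM (0.64 ± 0.09, adjusted p = 4.98e-05). It was called in all 13 settings tried in each population. Ero1b was at 0.08 ± 0.14 in fibroblasts and at 0.09 ± 0.17 in Epcam+ cells. Creb3l1, a transcription factor of secretory cells, rose in Epcam+ cells (0.51 ± 0.12, adjusted p = 0.0165, in 8 of 13 settings), while in fibroblasts it was at -0.22 ± 0.13 (adjusted p = 0.453). The difference between the populations was -0.73 ± 0.17 (adjusted p = 0.0409) and was called in 7 of 12 settings. Chac1, a glutathione-degrading target of the Perk branch, fell in fibroblasts from 18.5 ± 4.82 to 8.11 ± 0.89 CPM (-1.17 ± 0.22, adjusted p = 0.00424), as did Dnajb4, a cytosolic J-domain protein (-0.46 ± 0.09, adjusted p = 0.00664). The call held in 13 of 13 settings for Chac1 and in 10 of 13 for Dnajb4. The 3 genes of the leukocyte list (Cd14, Lyz2, Cd68) summed to 196 to 341 CPM in OGN-treated fibroblasts, against 77.4 to 149 with vehicle. Of these 3, 2 were called higher. Of the fibroblast markers 2 were called higher and 1 lower, of the alveolar type 2 markers 2 higher, and of the epithelial markers 1 higher. The part of these markers in the changes was not tested. No other gene of the 5 other lists or of the heat shock list was called with OGN.

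SFs changed no member. In Epcam+ cells 0.23% of all genes were called, the members' median was 0.06, 26 of 34 were above 0, and 3 had an unadjusted p under 0.05, beside 913 of all 11716 genes. The smallest p of each role was at Hyou1 (0.15 ± 0.07, adjusted p = 0.63), Dnajb9 (0.16 ± 0.13, 0.826), Pdia4 (0.14 ± 0.07, 0.67), Eif2ak3 (0.28 ± 0.11, 0.538), Syvn1 (0.26 ± 0.12, 0.609) and Sec61b (-0.17 ± 0.13, 0.813). No member was free of overlap, where 3.52% of all genes were. In fibroblasts 0.0599% of all genes were called, the median was 0.04, and 1 member, Fkbp2, had an unadjusted p under 0.05, beside 621 of all 11689 genes. Fkbp2 was at 57.9, 54.1, 48.6 and 52.7 CPM against 32.8, 40.8, 44.7 and 35.5 with vehicle. It lay above vehicle in every SF library (0.47 ± 0.20, adjusted p = 0.865), and without the EV libraries in the fit it was called (adjusted p = 0.0377, beside 0.924% of all genes).

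The other roles had their smallest p in SF-treated fibroblasts at Creld2 (0.18 ± 0.17), Dnajb11 (0.13 ± 0.10), Atf6 (-0.20 ± 0.15), Syvn1 (0.17 ± 0.10) and Sec61a1 (0.05 ± 0.08), all with an adjusted p of 1. Fkbp2 and Syvn1 were above vehicle and Atf6 below without overlap, beside 7.02% of all genes. The difference of the SF effect between the populations was called for no gene at all (0 of 11805, or 0.0%), with 590 genes and 2 members at an unadjusted p under 0.05. DESeq2 called no member in any of these 3 comparisons.

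The populations themselves differed in 24 of the 34 members under vehicle, 9 higher in Epcam+ cells and 15 higher in fibroblasts, beside 71.4% of all genes (35.6% and 35.8%). Sdf2l1 was highest in Epcam+ cells relative to fibroblasts, at 78.9, 76.5, 81.5 and 70.3 CPM against 34.1, 41.2, 28.5 and 26.9 (log2 fold change 1.25 ± 0.11, adjusted p = 2.33e-06). Sec61b followed at 1.02 ± 0.11 (adjusted p = 8.52e-06) and Fkbp2 at 0.92 ± 0.13 (adjusted p = 5.85e-05). Ern1 was lowest in Epcam+ cells, at 60.6, 72.7, 88.4 and 71.4 CPM against 156, 141, 176 and 179 (-1.17 ± 0.09, adjusted p = 8.57e-07). Eif2ak3 was at -1.01 ± 0.10 (adjusted p = 4.57e-06) and Edem1 at -0.87 ± 0.08 (adjusted p = 2.94e-06). None of these 6 overlapped between the populations. The matching share of all genes was not computed, so this does not set them apart. Of these 6 alone, those higher in Epcam+ cells had short transcripts (Sdf2l1 1113, Sec61b 1230 and Fkbp2 668 nt). Those lower had longer ones (Ern1 7002, Eif2ak3 4555 and Edem1 6002 nt). The relation to length over all 34 members was not computed for this comparison. With the length trend removed all 6 were still called. Of the 24 members called in that setting 20 were among the 24 above, beside 70.2% of all genes.

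All 4 sensors and transcription factors were higher in fibroblasts, Atf6 by 0.26 and Xbp1 by 0.22 on the log2 scale beside the 2 named. The call of Atf6 was lost without mouse 2, without mouse 4, with the length trend removed and with all 32 libraries in the model. That of Xbp1 was lost without mouse 2. The isomerases divided, with Fkbp2 and Pdia6 higher in Epcam+ cells and Pdia3, Pdia4, Pdia5 and P4hb higher in fibroblasts. Hspa5 (-0.05 ± 0.08), Calr (-0.02 ± 0.07) and Sec61a1 (-0.02 ± 0.06) did not pass the test. Each fraction held some RNA of the other, as the marker sums above show, and the part of this in the differences was not tested.

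**Figure D5:**
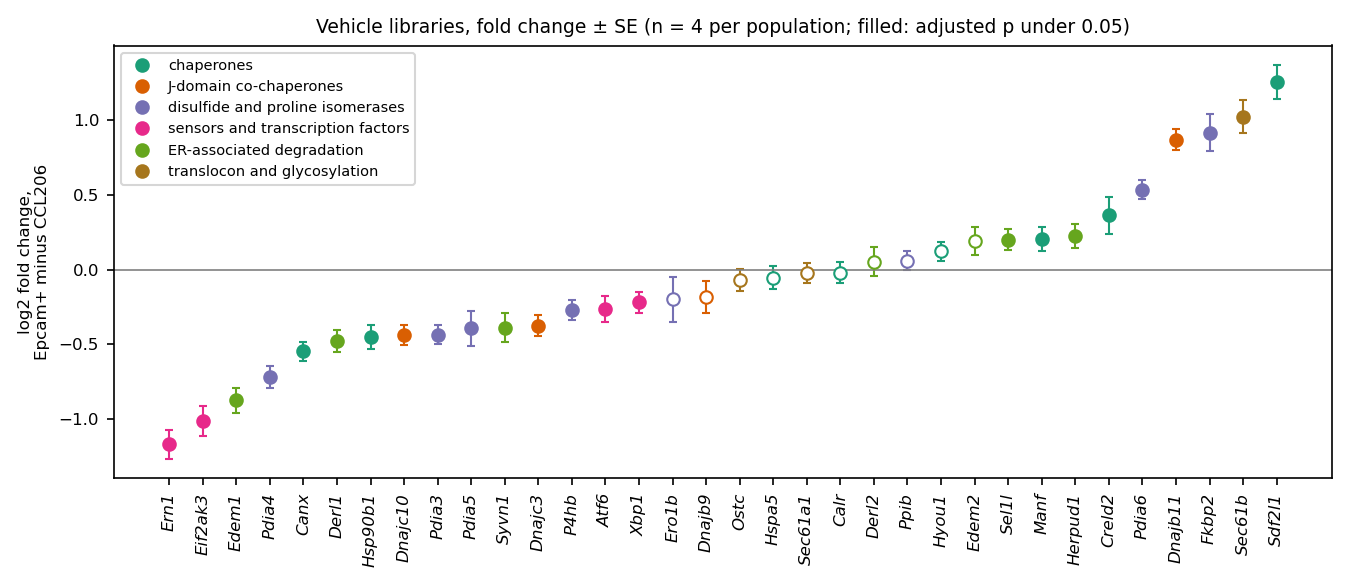
Log2 fold change ± SE between vehicle-treated Epcam+ cells and CCL206 fibroblasts for the 34 members, ordered by value (n = 4 per population; colors, role; filled, adjusted p under 0.05). The values run from -1.17 (Ern1) to 1.25 (Sdf2l1), and 24 symbols are filled.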

How the data were processed

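Total RNA of 32 libraries was sequenced, and per the labels the authors trimmed the reads with Trimmomatic (version 0.30). The aligner and the counting program are not given in the sources used here. The genome is GRCm38 (patch 6) in the methods and GRCm39 in the labels. The authors deposited raw counts, without normalization, for 11818 genes. Each of these has a count of 1 or more in all 32 libraries, and a gene unexpressed in either population is therefore not covered.

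Members and gene lists were chosen with earlier results of these data known. Counts were filtered with filterByExpr and scaled by TMM. The quasi-likelihood test of edgeR (version 4.0.16, R version 4.3.3) was fitted to 16 libraries per population with mouse and treatment as terms, to all 32 for the interaction, and to the 8 vehicle libraries for the populations, with Benjamini-Hochberg adjustment over all genes tested. The SE was derived from the log2 fold change and its F statistic. CPM are on the TMM scale of all 32 libraries. The named genes are all members called in a treatment comparison, the smallest p of each role without a call, up to 3 called genes of each other list, and the 3 largest population differences in either direction. Members and markers given beside these were chosen after their values were seen.

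Libraries with the same number come from the same mouse per the labels. Residuals of same-mouse libraries correlated with means of 0.0872 to 0.224 per comparison, and the lowest single value was -0.055, in EV-treated fibroblasts. Those of different mice had means of -0.07 to -0.0296. These follow largely from the same-mouse means, because residuals were centred on group means, and are not separate evidence of pairing. No replicate pair of the 48 agreed within sampling noise. The depth of 1805914 to 17675454 counts limits the precision of low genes. Transcript lengths (GENCODE vM39, canonical transcripts) matched 98.9% of genes and all members. Scripts were tested on simulated data. Alternatives were no mouse term, DESeq2 (version 1.42.0), RLE size factors, no filter, at least 10 counts in every library, each mouse left out, the length trend removed, and fewer libraries in the fit.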

Additional observations from a re-analysis of the deposited data

Results flagged for a closer look

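The EV effect differed between the populations, by the interaction test over 32 libraries, for 8 members (23.5%). In that test 23.8% of all genes were called, so the count does not set the members apart. The difference of log2 fold changes (fibroblasts minus Epcam+ cells) was 1.32 for Fkbp2, 1.13 for Sec61b, 0.78 for Creld2, 0.42 for P4hb, 0.40 for Ppib, 0.39 for Pdia6, -0.73 for Atf6 and -0.70 for Ern1, and none of the 8 passed without the EV libraries of mice 2 and 4.

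Single libraries stood far from the other 3 of their group by Dixon's ratio in 4 of 92 groups, those of the members named in a comparison that uses the group. Over all 272 groups of the 34 members the ratio marked 7. Chance marks about 1 group in 20. Pdia4 was at 826 CPM in the EV-treated fibroblast library of mouse 2, against 716 to 734 in the other mice. It was at 401 CPM in the vehicle Epcam+ library of mouse 2, against 346 to 353. Ostc was at 126 CPM in the vehicle fibroblast library of mouse 2, against 111 to 113. Sec61a1 was at 504 CPM in the OGN-treated Epcam+ library of mouse 4, against 474 to 478.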

How the results depend on the processing

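Of the counts of members called, 94 of those recomputed lay within 1.5 times the reported one and 22 did not. In EV-treated fibroblasts 20 members were called, beside 36.0% of all genes. Leaving out 1 mouse gave between 0 (mouse 2 out, 0.162% of genes) and 20 (mouse 1 out, 38.9%). The count was 5 without the EV libraries of mice 2 and 4 (5.48% of genes) and 2 in the 8 libraries compared (3.34%). For the EV interaction the 8 members, beside 23.8% of genes, became 1 to 12 with a mouse left out (2.21 to 25.2%). They were 0 without the EV libraries of mice 2 and 4 (0.246%) and 3 with the length trend removed (11.2%). With OGN, Epcam+ cells had 3 called members by DESeq2 (Calr, Hyou1, P4hb), beside 3.97% of all genes. With any mouse left out 0 were called (1.23 to 2.29% of genes). None passed without the EV libraries (2.17%) or in the 8 libraries compared (1.61%). Fibroblasts with OGN had 2 with the length trend removed (7.29% of genes). They had 8 without the EV libraries (15.1%) and 2 in the 8 libraries compared (11.7%). With SFs they had 1, Fkbp2, in each of the last 2 settings (0.924 and 2.63%).

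Without the replicate block, that is with no term for the mouse, 0 members were called in OGN-treated Epcam+ cells (1.69% of genes). For the EV interaction 5 were called (19.8% of genes). No other count moved by over 1.5 times.

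Of the values of named members, 621 kept direction and side of the threshold, 118 fell short of it, 10 newly passed and 5 changed sign. With the length trend removed Ppib was at -0.17 and Ostc at -0.16 in EV-treated fibroblasts, and Ppib at -0.12 in the interaction. Ostc was at -0.028 without the EV libraries of mice 2 and 4. Dnajc3 in EV-treated Epcam+ cells ranged from -0.032 to 0.10 with a mouse left out. The cause was not tested.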
